A study of Mus musculus with 2 samples.

Results

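The genes followed here are 9 that mark macrophages handling a load of lipid: *Fabp4*, *Fabp5*, *Gpnmb*, *Atp6v0d2*, *Apoe*, *Trem2*, *Spp1*, *Lpl* and *Cd36*. They were taken by name from the 32285 genes of the deposited single-cell count tables, and each of the 9 was found once in every table. The set was selected on the counts of the second of 2 sequencing runs, in which *Fabp4*, *Gpnmb* and *Atp6v0d2* led a large group of PEP-WT barcodes. What the second run shows of these genes is therefore given as a description and supports nothing. The first run was not named in the rule, although results of both runs were known when the set was chosen.

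Macrophages that take up dead cells, membranes or lipoproteins must bind, digest, store and export the lipid they swallow. *Trem2* is a surface receptor for lipids and lipoproteins, *Apoe* carries cholesterol out of the cell, *Lpl* and *Cd36* free and take up fatty acids, and the fatty acid-binding proteins carry them through the cytosol. Lysosomal proteins such as *Gpnmb* and the proton pump subunit *Atp6v0d2* accompany the digestion, and osteopontin, the product of *Spp1*, is secreted. In the spleen, macrophages of the red pulp clear spent red cells, and monocytes enter and give rise to further macrophages during infection.

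The mice were C57BL/6 animals that carried either the normal *Ptpn22* gene (PEP-WT) or, on both copies, an allele made by CRISPR/Cas9 editing to match a human variant linked to autoimmunity (PEP-619WW). PEP is the phosphatase that *Ptpn22* encodes, and the change is in the germ line, so that all cells of a PEP-619WW mouse carry it. As the study describes it, all mice of both genotypes had been infected with clone 13 of lymphocytic choriomeningitis virus (LCMV-cl13), which persists, and were taken 8 days later. The study describes pools of splenocytes from 4 to 5 mice of a genotype, sorted for live CD45+ cells. Each genotype has 1 deposited library in each of the runs, called run 1 and run 2 here, and in both genotypes the number of cells and the median of genes per cell in the methods are those of run 2. No source used here describes run 1 or says whether both runs hold the same mice. The mice behind one library cannot be told apart, no uninfected animals were analysed here, and the comparison within a run sets 1 pool against 1 pool, with no replicate. The deposited labels name the liver, a human T cell line and tumor infiltrating cells, whereas the protocols and the study's methods name spleen.

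The libraries held between 8576 and 14821 cell barcodes and between 55504449 and 77916082 unique molecular identifiers (UMIs, each 1 captured RNA molecule). They shared 19 to 49 barcodes per pair. The libraries of run 2 went against the statement that the mice were matched for sex. In run 1, no barcode of either library held RNA of the 4 Y-linked genes without *Xist*. In run 2, 25.5% of PEP-WT barcodes held Y-linked RNA alone and 28.1% held *Xist* alone, whereas in PEP-619WW 46.3% held Y-linked RNA alone and 3 barcodes held *Xist* alone. Barcodes with UMIs of at least 3 of 6 pigment cell genes numbered 256 in PEP-WT and 27 in PEP-619WW of run 2 and 0 in both libraries of run 1. Results of run 2 are therefore also given for barcodes with Y-linked RNA alone and, for *Gpnmb* in C1q macrophages, without the pigment cell barcodes. The gates for B cells and NK cells held 0 of the 9539 PEP-WT barcodes of run 2, against 7489 B cells, or 50.5% of the library, in PEP-WT of run 1. In PEP-619WW, B cells were 4.52% of the library in run 2 and 42.1% in run 1. Whether either library of run 2 holds a tissue other than spleen was not tested.

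Barcodes were sorted into classes, called gates here, by a few genes that are not members. C1q macrophages held at least 5 UMIs of the complement genes *C1qa* and *C1qb* together, monocytes held at least 5 UMIs of the lysozyme gene *Lyz2* and none of *C1qa*, and conventional dendritic cells (cDCs) held *Flt3* and at least 10 UMIs of the MHC class II gene *H2-Aa*. In run 1, 598 PEP-WT and 494 PEP-619WW barcodes were C1q macrophages, with a median of 10105.5 and 12356 UMIs. In run 2 the numbers were 5839 and 1968, which were 61.2% and 17.8% of the libraries, with a median of 8057 and 6874 UMIs. Monocytes numbered 1069 and 838 in PEP-WT and PEP-619WW of run 1 and 817 and 3089 in run 2. Of these, 48 and 53 in run 1 and 80 and 145 in run 2 also reached the C1q minimum, through *C1qb*. They were kept in both gates, and ratios of monocytes without them were not computed. The cDC gate held 274 and 176 barcodes in run 1 and 48 and 464 in run 2, so that the PEP-WT cDCs of run 2 are the smallest of these groups. Other settings used below left fewer cDCs. Of the PEP-WT cDCs of run 2, 15 held at least 2 UMIs of *Flt3*, 19 held Y-linked RNA alone and 39 were not C1q macrophages. Without likely doublets, the cDCs of run 1 numbered 56 in PEP-WT and 44 in PEP-619WW.

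The gates were checked against other markers. Of macrophage genes that did not set the gate, *Adgre1*, which encodes the antigen F4/80, stood at 58.7 and 60.8 CPM (UMIs of a gene per 1000000 UMIs of the gate) in the C1q macrophages of PEP-WT and PEP-619WW of run 1 and at 221 and 183 in run 2. The mannose receptor gene *Mrc1* stood at 14.2 and 21.5 in run 1 and at 1423 and 963 in run 2. *Spic*, the factor that defines red pulp macrophages, stood at 87.8 and 66.6 in run 1 and at 3.96 and 3.85 CPM in run 2. The red pulp list of 5 genes as a whole summed to 684 and 668 in run 1 and 1393 and 989.6 in run 2, most of the latter from *Hmox1*, the heme-degrading enzyme, at 1182 and 955 against 197 and 193 in run 1. *Clec4f*, which defines the Kupffer cells of the liver, was at 0 in the C1q macrophages of all 4 libraries, as were the hepatocyte genes *Alb* and *Apoa1* and the adipocyte genes *Adipoq*, *Cidec* and *Lep*. The hepatocyte list as a whole summed to 5.61 and 4.65 CPM in this gate in run 1 and to 1.12 and 0.441 in run 2, nearly all from *Apoa2*. The Kupffer cell list summed to 4.40 and 0.367 CPM in this gate in run 1 and to 159.9 and 70.7 in run 2, nearly all from the folate receptor gene *Folr2*, at 158 and 70.6. Adipocytes also make *Fabp4*, *Lpl* and *Cd36*, and osteoclasts make *Atp6v0d2*. In the C1q macrophages the adipocyte list summed to at most 0.367 CPM. The osteoclast list summed to 127 and 125 in run 1 and 58.9 and 69.3 in run 2, largely from the acid phosphatase gene *Acp5*, at 95.1, 92.2, 53.0 and 47.4, while *Calcr* was at 0.

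The macrophage gate was not equally pure in both runs. In run 1, 302 of 598 C1q macrophages in PEP-WT and 220 of 494 in PEP-619WW also reached the minimum set for T, B or NK cell genes, against 22 and 156 in run 2. The monocyte list summed to 5333 and 5704 CPM in the C1q macrophages of run 1, of which *Ly6c2* gave 2863 and 2625, and the neutrophil list to 3319 and 2996, against 204 and 481 in run 2. In run 2 the monocyte list was lower in PEP-WT than in PEP-619WW, with 761 and 3574, and the T cell list stood at 6.61 and 162, the B cell list at 13.6 and 32.0 and the erythroid list at 283 and 0.882. The platelet list of run 2 stood at 2741 and 1997, nearly all from *Pf4*, at 2716 and 1939. In run 1 the lists that differed between the genotypes included the erythroid one, at 1466 and 249, the platelet one, at 95.2 and 17.9, and the alveolar macrophage one, at 1103 and 2129. Nearly all of the last came from *Chil3*, at 1067 and 2091, while *Car4* and *Krt79* were at 0 and *Siglecf* at 0 and 0.367. In the monocytes, 412 of 1069 in PEP-WT and 404 of 838 in PEP-619WW of run 1 also reached the minimum set for neutrophils, against 44 and 173 in run 2, and the neutrophil list summed to 40661 and 69368 CPM in run 1 beside 8083 and 6934 for the monocyte list. In the monocytes of run 2 the neutrophil list summed to 2355 and 1736 and the monocyte list to 3053 and 5153. The macrophage list summed to 1866 and 1541 there, against 366 and 368 in run 1. *Ly6c2* stood at 66.25 and 441 in these monocytes, against 3052 and 2497 in run 1. *Mrc1* stood at 643 and 479, against 3.69 and 4.29. In the cDCs, 204 of 274 and 127 of 176 of run 1 reached the lymphoid minimum, against 0 and 58 in run 2, and the B cell list summed to 1342 and 1174 beside 162 and 122 for the cDC list. The part of these lists in the results below was not tested, beyond the values given without likely doublets or without neutrophil barcodes.

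Levels are CPM in 1 library, with exact Poisson intervals, and shares of barcodes have exact binomial intervals. Ratios are PEP-WT over PEP-619WW on the log2 scale with exact conditional intervals, so that a value above 0 means a higher level in PEP-WT. All intervals are 95% intervals and cover counting error alone, since there is 1 library per genotype and run. No p-value was computed. Fewer cells of a kind and less RNA per cell cannot be told apart where a gate holds several kinds of cell.

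The fatty acid-binding proteins stood far higher in run 2 than in run 1 and, in C1q macrophages, higher in PEP-WT within each run, for *Fabp5* of run 1 not under every setting. *Fabp4* (chr3:10204088-10208576, minus strand, build GRCm38) encodes the binding protein known from adipocytes and macrophages. In C1q macrophages of run 1 it stood at 4.40 CPM (3.14 to 5.99) in PEP-WT and 2.33 (1.40 to 3.63) in PEP-619WW, from 40 and 19 UMIs, a log2 ratio of 0.92 (0.10 to 1.79). In run 2 the levels were 593 (587 to 599.6) and 65.2 (61.3 to 69.3), a log2 ratio of 3.19 (3.1 to 3.28). The PEP-WT library was thus high in both runs, but run 1 rests on few molecules and on barcodes of which 3.68% and 2.43% held the gene, against 46.4% and 9.91% in run 2.

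In monocytes of run 2, *Fabp4* stood at 337 CPM in PEP-WT and 32.6 in PEP-619WW, so that it was also found in barcodes without *C1qa* in the second run. The part in these levels of the monocytes that were also C1q macrophages was not tested. In cDCs, where *C1qa* was not barred, it stood at 232 and 54.2, a log2 ratio of 2.10 that turned to -1.17 without the barcodes that were also C1q macrophages. In run 1 the monocytes held 23 and 7 UMIs of it, fewer together than the 50 required for a ratio to be counted. T cells, which should lack the gene, held 0.237 and 0.388 CPM in run 1 and 3.76 in PEP-619WW of run 2, in 0.145%, 0.345% and 1.01% of T cells, whose median depth was 3950.5, 6270 and 3035 UMIs.

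*Fabp5* (chr3:10012548-10016607, plus strand) encodes the epidermal fatty acid-binding protein, which many cell types make, and lies near *Fabp4* on the same chromosome. Its level in C1q macrophages was 188 (179 to 197) in PEP-WT and 134 (126 to 142) in PEP-619WW of run 1, a log2 ratio of 0.49 (0.38 to 0.60). In run 2 it was 6751 (6729.6 to 6772) and 2543 (2518 to 2568), a log2 ratio of 1.41 (1.39 to 1.42). The run 1 value does not hold its direction, since it was -0.37 without likely doublets and -0.21 with each barcode reduced to 1000 UMIs. In the other gates the log2 ratio was 0.86 in monocytes and 0.73 in cDCs of run 1, and 2.05 and 0.77 in run 2. The cDC value of run 1 was -0.057 when thinned and 2.46 without likely doublets, so that it does not hold its size or direction. T cells held it as well, with 95.3 and 77.0 CPM in T cells of run 1, 516 in T cells of PEP-619WW of run 2, and 1239 and 885 in neutrophils of run 2. The annotation holds a processed pseudogene of it, *Fabp5l2*, and reads the pair shares could be split between them, so that its counts are less certain.

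**Figure D1:**
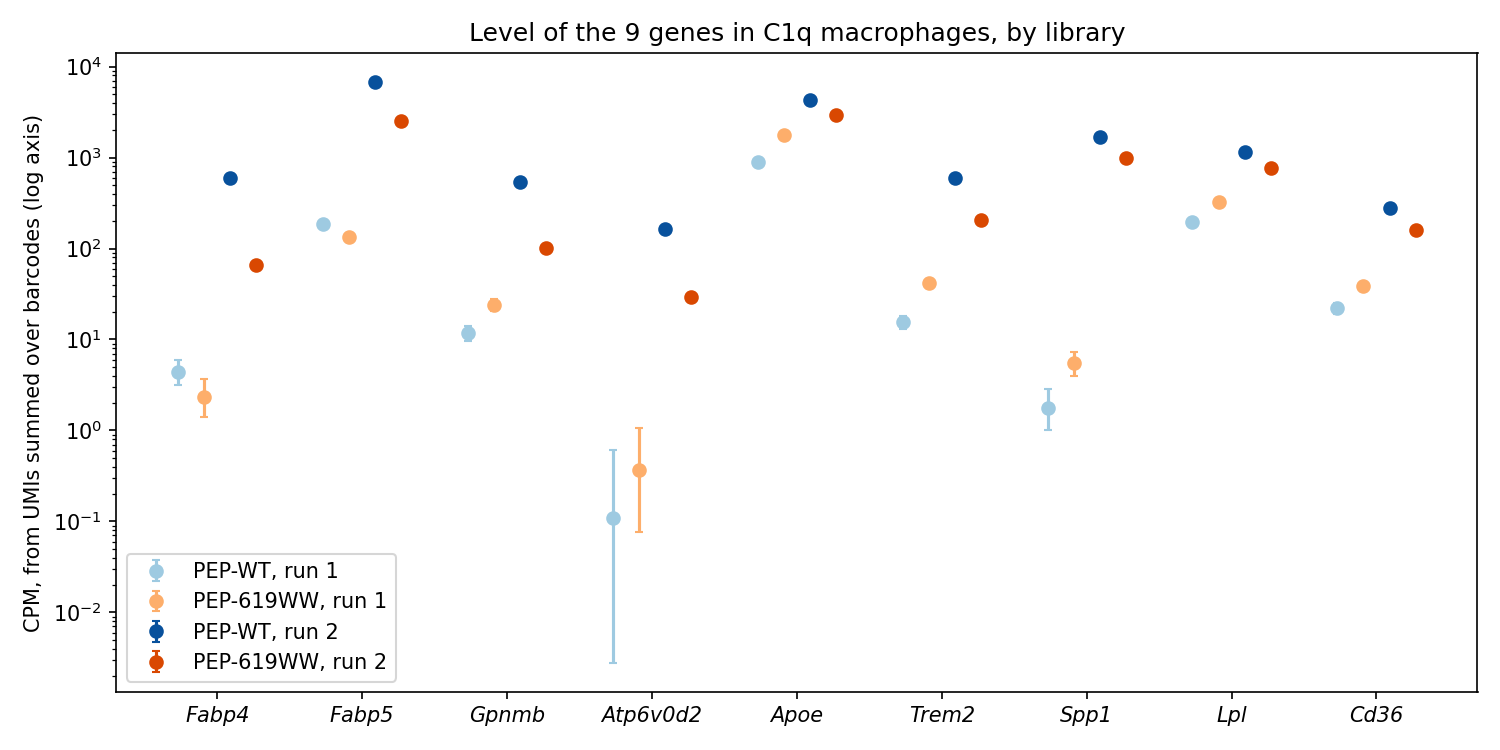
Level of each of the 9 genes in C1q macrophages, in CPM on a log axis, for the PEP-WT and PEP-619WW library of run 1 and of run 2, with vertical bars for exact 95% Poisson intervals. All 9 genes stand higher in both libraries of run 2 than in either library of run 1, from *Apoe*, at 903 and 1762 in run 1 and 4283 and 2924 in run 2, to *Spp1*, at 1.76 and 5.51 and then 1692 and 999.

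Of the lysosomal pair, *Gpnmb* changed sides between the runs and *Atp6v0d2* was nearly absent in run 1. *Gpnmb* (chr6:49036546-49070929, plus strand) encodes a glycoprotein of the lysosome and cell surface that macrophages make when their lysosomes are under load. In run 1 its level in C1q macrophages was 11.7 (9.54 to 14.1) in PEP-WT and 24 (20.8 to 27.6) in PEP-619WW, a log2 ratio of -1.04 (-1.40 to -0.69), just past the 2-fold mark on the side of PEP-619WW. In run 2 it was 534 (528 to 539.5) and 101 (96.5 to 107), a log2 ratio of 2.40 (2.32 to 2.47). The PEP-WT library was the lower one in run 1 and the higher one in run 2, and the intervals did not overlap in either.

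Monocytes held *Gpnmb* in the same order as macrophages. The levels were 6.11 and 10.5 in PEP-WT and PEP-619WW of run 1, a log2 ratio of -0.78 (-1.35 to -0.22), and 491 and 77.2 in run 2, a log2 ratio of 2.67. Without likely doublets the run 1 ratio was -0.20. In cDCs of run 2 the levels were 48.4 and 11, a log2 ratio of 2.13 that was 0.35 without the barcodes shared with the C1q gate. *Gpnmb* is also a gene of pigment cells, and the pigment cell list summed to 132 and 22.8 CPM in the C1q macrophages of run 2 and to 0.659 and 0.857 in run 1. Without the pigment cell barcodes, 174 and 9 of which lay in this gate, the log2 ratio of *Gpnmb* in run 2 was 2.37. In the monocytes of run 2 the pigment cell list summed to 333 and 12.8 CPM, although only 7 and 5 pigment cell barcodes lay there. The part in these *Gpnmb* levels of pigment cell RNA in other barcodes was not tested.

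*Atp6v0d2* (chr4:19876841-19922605, minus strand) encodes a subunit of the membrane part of the vacuolar proton pump that is known from osteoclasts and some macrophages. In run 1 the C1q macrophages held 1 UMI of it in PEP-WT and 3 in PEP-619WW, fewer together than the 50 required for a ratio to be counted, so that it stayed out of the counts of that run. In run 2 the levels were 162 (159 to 166) and 29.4 (26.8 to 32.2), a log2 ratio of 2.46 (2.33 to 2.60). The monocytes of run 2 held 89.0 and 19.3 CPM. T cells of PEP-619WW of run 2 held 2.22.

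The promoters of *Gpnmb*, *Trem2* and *Spp1* are shown because these are the members with at least 50 UMIs that were past 2-fold on the side of PEP-619WW in the C1q macrophages of run 1 and stood higher in PEP-WT in run 2. For *Spp1* the side of run 1 depends on the setting, with log2 ratios of 0.84 without likely doublets, 0.10 with at least 20 UMIs of *C1qa* and *C1qb* and 2.04 without *Ccr2*. Each is the 250 bases before an annotated start in RefSeq on GRCm38.p6, 5′ to 3′ on the strand of the gene, and capitals mark the single match to a searched motif.

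*Gpnmb* (chr6:49036268-49036517, plus strand): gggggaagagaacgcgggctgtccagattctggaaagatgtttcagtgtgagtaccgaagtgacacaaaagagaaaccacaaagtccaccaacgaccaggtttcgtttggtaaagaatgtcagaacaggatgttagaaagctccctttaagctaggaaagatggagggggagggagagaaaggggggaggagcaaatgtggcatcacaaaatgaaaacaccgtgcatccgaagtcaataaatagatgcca

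*Trem2* (chr17:48346151-48346400, plus strand): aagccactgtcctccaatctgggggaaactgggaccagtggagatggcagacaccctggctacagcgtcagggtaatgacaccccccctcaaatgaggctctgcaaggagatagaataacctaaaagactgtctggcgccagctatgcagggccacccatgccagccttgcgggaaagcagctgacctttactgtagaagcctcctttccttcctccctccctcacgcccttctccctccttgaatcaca

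*Spp1* (chr5:104434861-104435110, plus strand): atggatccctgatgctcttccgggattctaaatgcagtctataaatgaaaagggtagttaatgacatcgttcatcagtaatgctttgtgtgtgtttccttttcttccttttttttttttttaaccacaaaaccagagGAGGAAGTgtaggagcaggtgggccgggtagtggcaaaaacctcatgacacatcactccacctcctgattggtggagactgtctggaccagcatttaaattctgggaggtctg

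The RefSeq table held promoters for 5 of the 9 genes, with 8 annotated starts, and none were shown for *Fabp4*, *Fabp5*, *Atp6v0d2* and *Lpl*. Both strands of each window were searched for 6 motifs: CACGTG and CATGTG, which MiT/TFE factors are known to bind, TGAGTCA of AP-1, GAGGAAGT of PU.1, TTGCNCAA of C/EBP factors and the spaced repeat that PPAR and RXR bind. Over the 8 windows there was 1 match, GAGGAAGT in the *Spp1* window shown. Among all 32851 promoter windows of the same length, 2.44% held GAGGAAGT, 6.02% CACGTG, 12.3% CATGTG, 4.46% TGAGTCA, 2.61% TTGCNCAA and 0.0335% the PPAR and RXR repeat. A match describes the letters of the window and shows no binding.

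The lipoprotein sensor and carrier stood higher in PEP-619WW in run 1 and higher in PEP-WT in run 2. *Trem2* (chr17:48346401-48354147, plus strand) had levels of 15.5 (13 to 18.3) in PEP-WT and 41.5 (37.2 to 46.2) in PEP-619WW in the C1q macrophages of run 1, a log2 ratio of -1.42 (-1.72 to -1.13). This ratio was -0.73 with each barcode thinned to 1000 UMIs, short of 2-fold, and -2.37 in barcodes without *Ccr2*. In run 2 the levels were 590.3 (584 to 597) and 206 (199 to 214), a log2 ratio of 1.52 (1.46 to 1.57). The share of C1q macrophages with a UMI of *Trem2* followed the same order, at 12.7% (10.1 to 15.6) and 24.1% (20.4 to 28.1) in run 1 and 85.1% and 56.7% in run 2. In T cells of run 1, which should lack it, the share was 0.109% and 0.345%, at a median depth of 3950.5 and 6270 UMIs per barcode. With every macrophage barcode reduced to 1000 random UMIs, the shares of barcodes with *Trem2* were 1.97% and 3.05% in run 1 and 40.8% and 17.3% in run 2.

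Monocytes showed *Trem2* at 26.0 and 41.1 CPM in run 1, a log2 ratio of -0.66 (-0.94 to -0.39), and at 297 and 99.4 in run 2, a log2 ratio of 1.58. In PEP-WT of run 1 the monocyte gate was thus above the C1q macrophage gate, while in run 2 the macrophages were above the monocytes in both genotypes. In cDCs of run 2 the levels were 75.8 and 12.7, a log2 ratio of 2.58 that was 0.67 without the barcodes that were also C1q macrophages.

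*Apoe* (chr7:19696109-19699188, minus strand), which encodes apolipoprotein E, was the member with the smallest gap between the runs in C1q macrophages. Its levels in C1q macrophages were 903 (883 to 923) in PEP-WT and 1762 (1733 to 1791) in PEP-619WW of run 1, a log2 ratio of -0.96 (-1.0 to -0.93), just short of the 2-fold mark. In run 2 they were 4283 (4266 to 4299.7) and 2924 (2898 to 2951), a log2 ratio of 0.55 (0.54 to 0.56). Monocytes had log2 ratios of -0.92 (-0.99 to -0.85) in run 1 and 0.49 (0.46 to 0.53) in run 2, but the latter was -0.041 among barcodes with Y-linked RNA alone. The cDCs of run 1 had a log2 ratio of -0.10 (-0.20 to 0.0027), which was 0.79 without likely doublets. UMIs of *Apoe* were also found outside macrophages and monocytes, and the part of free RNA in them was not tested. B cells held 351 and 420.2 CPM in run 1, with 46.1% and 60.5% of barcodes positive. T cells of run 1 held 66.8 and 56.0, with 13.8% and 20.7% positive, at a median of 3950.5 and 6270 UMIs against 2794 and 3573 in B cells.

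Osteopontin RNA was scarce in run 1 and abundant in run 2. *Spp1* (chr5:104435118-104441050, plus strand) encodes this secreted, integrin-binding phosphoprotein, and the annotation places *Gm42793* on the same strand of its locus, so that reads of the overlap could be split. In run 1 the C1q macrophages held 16 UMIs of it in PEP-WT and 45 in PEP-619WW, or 1.76 (1.01 to 2.86) and 5.51 (4.02 to 7.37) CPM, a log2 ratio of -1.65 (-2.57 to -0.80). These UMIs lay in 12 of 598 and 11 of 494 barcodes, or 2.01% and 2.23%, and the intervals do not cover such clustering by barcode. The log2 ratio does not hold its direction: without likely doublets it was 0.84, and in barcodes with at least 20 *C1qa* and *C1qb* UMIs it was 0.10. In run 2 the levels were 1692 (1681 to 1702) and 999 (983 to 1015), a log2 ratio of 0.76 (0.74 to 0.78).

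*Spp1* was highest outside the macrophage gate. In PEP-WT of run 2, the monocytes held 5421 CPM and the neutrophils 5729, against 1692 in C1q macrophages and 781 in cDCs. In PEP-619WW of run 2, the order was the same, with 3327 in neutrophils, 1436 in monocytes, 999 in C1q macrophages and 103 in cDCs. In both libraries the intervals of neighbouring gates did not overlap. The NK cells held 81.8 CPM in PEP-WT of run 1 and 379 in PEP-619WW of run 2, and the T cells of the latter held 87.1, and the part of free RNA in these values was not tested.

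The genes of lipid uptake were also higher in PEP-619WW in run 1 and higher in PEP-WT in run 2. *Lpl* (chr8:68880491-68907448, plus strand) encodes lipoprotein lipase, which frees fatty acids from triglyceride-rich particles, and its levels in C1q macrophages were 197 (188 to 207) and 322 (309.8 to 335) in PEP-WT and PEP-619WW of run 1, a log2 ratio of -0.71 (-0.79 to -0.62). In run 2 they were 1163 (1154 to 1172) and 760.3 (747 to 774), a log2 ratio of 0.61 (0.59 to 0.64). *Cd36* (chr5:17781690-17888801, minus strand) encodes a scavenger receptor that takes up fatty acids and oxidised lipoproteins. Its levels were 22.2 (19.2 to 25.5) and 38.4 (34.3 to 42.9) in run 1, a log2 ratio of -0.79 (-1.05 to -0.53), and 281 (277 to 285) and 158 (152 to 165) in run 2, a log2 ratio of 0.83 (0.77 to 0.89).

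In monocytes, *Cd36* was the one member past 2-fold in run 1 among the 7 with at least 50 UMIs, at 11.5 and 24.6 CPM, a log2 ratio of -1.10 (-1.49 to -0.72) that was -0.61 when thinned. In run 2 it stood at 327 and 114, a log2 ratio of 1.52. *Lpl* in monocytes had a log2 ratio of -0.61 (-0.74 to -0.49) in run 1 and of 0.97 (0.92 to 1.03) in run 2, just short of the 2-fold mark. *Lpl* was below macrophage level in cDCs, at 35.8 and 51.3 CPM in run 1 and 199.98 and 66.3 in run 2. The gap between the genotypes in these cDCs of run 2, 1.59 on the log2 scale, was -0.68 without the barcodes that were also C1q macrophages and -0.049 when thinned. *Cd36* in cDCs stood at 23.6 and 20.3 in run 1, where PEP-WT did not differ from macrophages beyond counting error, and at 96.8 and 23.3 in run 2, a log2 ratio of 2.05 that was 0.82 with at least 2 UMIs of *Flt3*.

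Counted together, the 9 genes did not lean to PEP-WT in run 1. In C1q macrophages 8 of the 9 had at least 50 UMIs in both libraries together, of which 0 were at least 2-fold higher in PEP-WT and 3 at least 2-fold lower (*Gpnmb*, *Trem2* and, with few UMIs, *Spp1*), where 1.24% and 0.98% of all genes tested were. The other 5 lay on both sides of 0, *Fabp4* and *Fabp5* above and *Apoe*, *Lpl* and *Cd36* below. The count depends on the setting, since 0 of the 3 members with enough UMIs were at least 2-fold lower when each barcode was thinned to 1000 UMIs, where 1.19% of all genes were higher and 0.577% lower. With a minimum of 2 UMIs of *C1qa* and *C1qb* 1 was lower and 1 higher, against 1.33% of all genes higher and 0.933% lower. Without likely doublets 4 were at least 2-fold lower and 0 higher, against 0.962% and 1.59% of all genes, and the log2 ratio was -1.82 for *Gpnmb*, -1.45 for *Trem2*, -1.20 for *Apoe* and -1.73 for *Cd36*. The median log2 ratio of the 8 was -0.88, against 0.019 over all genes. In monocytes 0 of 7 were at least 2-fold higher and 1 was at least 2-fold lower, or 0 when thinned, against 1.39% and 1.08% of all genes or 3.26% and 0.959% when thinned. In cDCs 0 of 4 passed in either direction, against 1.42% and 1.14%.

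In run 2, whose contrast chose the genes, 5 of 9 were at least 2-fold higher in PEP-WT C1q macrophages (*Fabp4*, *Fabp5*, *Gpnmb*, *Atp6v0d2* and *Trem2*) and 0 were at least 2-fold lower, where 7.17% and 8.82% of all genes were. In monocytes 7 of 9 were higher and 0 lower, against 2.46% and 9.83%, the exceptions being *Apoe* and *Lpl*. In cDCs 7 of 8 were higher and 0 lower, against 1.48% and 16.5%, the exception being *Fabp5*. The median log2 ratio of the members was 1.41 in C1q macrophages, 1.92 in monocytes and 2.07 in cDCs. Over all genes tested it was -0.11 in C1q macrophages, -0.25 in monocytes and -0.31 in cDCs of run 2. Nothing is read from these counts, and the cDC count rests on 48 PEP-WT barcodes, 9 of which were also C1q macrophages. With those barcodes taken out of both libraries, 1 member was at least 2-fold higher and 1 at least 2-fold lower, where 0.775% and 20.1% of all genes were, and the log2 ratio went from 2.92 to -0.33 for *Spp1* and from 1.14 to -0.88 for *Apoe*.

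**Figure D2:**
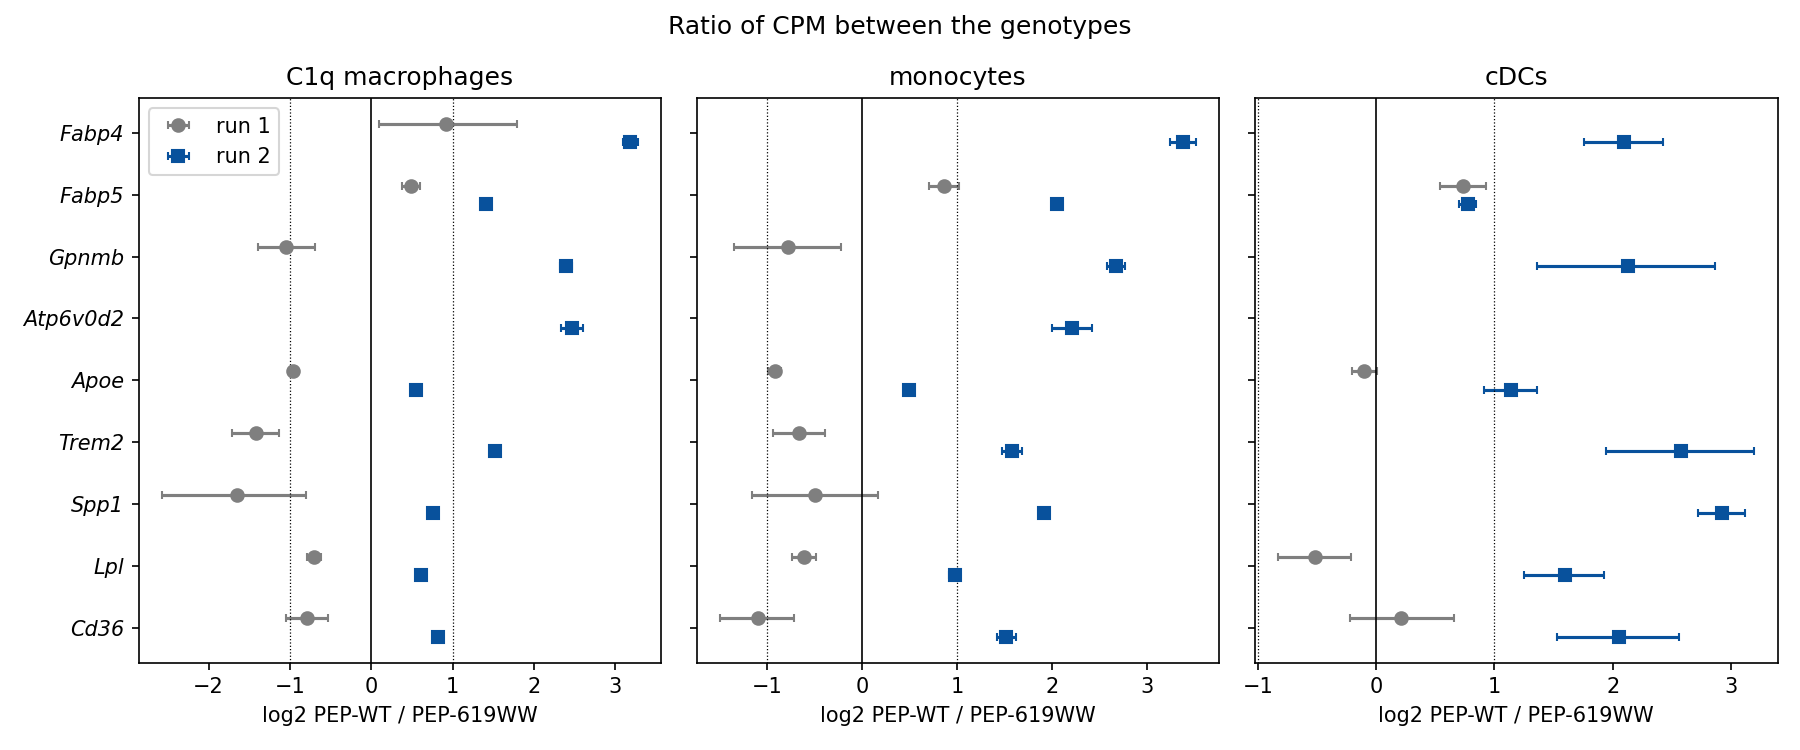
Log2 ratio of PEP-WT over PEP-619WW for each of the 9 genes in C1q macrophages, monocytes and cDCs, run 1 and run 2 apart, with horizontal bars for exact 95% intervals of counting error and dotted lines at 2-fold. In C1q macrophages *Gpnmb*, *Apoe*, *Trem2*, *Spp1*, *Lpl* and *Cd36* lie below 0 in run 1 and above 0 in run 2, while *Fabp4* and *Fabp5* lie above 0 in both.

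The mixture of sexes in run 2 was set apart by comparing barcodes with Y-linked RNA alone, 1922 C1q macrophages of PEP-WT and 1144 of PEP-619WW. In these barcodes 5 members were at least 2-fold higher in PEP-WT and 0 lower, where 6.2% and 9.32% of all genes were. The log2 ratio was 2.85 for *Fabp4*, 2.10 for *Gpnmb*, 2.33 for *Atp6v0d2* and 1.55 for *Trem2*. For *Spp1* it was 0.51 and for *Apoe* 0.46, and all 9 lay above 0. Among monocytes, 148 and 1623 such barcodes, 7 members were at least 2-fold higher, against 2.34% of all genes higher and 13.6% lower. Among cDCs 7 were higher as well, against 2.67% and 21.4%, but that count rests on 19 PEP-WT barcodes and 307 of PEP-619WW. *Apoe* in monocytes stood at -0.041.

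Within the PEP-WT library of run 2, the macrophages with *Xist* alone stood above those with Y-linked RNA alone in all 9 members, by more for *Fabp4* and *Gpnmb* than for *Trem2*. *Fabp4* stood at 920.1 CPM in the *Xist* barcodes and 432 in the Y barcodes, *Gpnmb* at 831 and 379.8, and *Atp6v0d2* at 219.9 and 136. *Trem2* stood at 625 and 579. Sex and the single mouse cannot be told apart in a pool.

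Between the runs, all 9 genes stood higher in run 2 in the C1q macrophages of both genotypes. In PEP-WT the level in run 2 over run 1 was 962 times for *Spp1*, 135 times for *Fabp4*, 45.8 times for *Gpnmb*, 38.1 times for *Trem2* and 36.0 times for *Fabp5*. The gap was smaller for *Cd36*, at 12.7 times, for *Lpl*, at 5.90 times, and for *Apoe*, at 4.74 times. For *Atp6v0d2*, with 1 UMI in run 1, the log2 ratio was 10.53 (8.05 to 15.83). In PEP-619WW it was 181 times for *Spp1*, 28.0 times for *Fabp4*, 19.0 times for *Fabp5*, 4.97 times for *Trem2*, 4.23 times for *Gpnmb* and 1.66 times for *Apoe*. In PEP-WT 9 of 9 members were at least 2-fold higher in run 2 and 0 lower, where 16.5% and 13.9% of all genes were, and in PEP-619WW 8 of 9 were higher, all but *Apoe*, and 0 lower, against 14.6% and 10.3%. In monocytes 9 of 9 were higher in run 2 and 0 lower in both genotypes, against 9.99% and 18.6% of all genes in PEP-WT and 13.9% and 9.81% in PEP-619WW. In cDCs 6 of 7 were higher and 0 lower in PEP-WT, against 9.28% and 28.2%, and 3 of 8 were higher and 0 lower in PEP-619WW, against 16.6% and 12%. The PEP-WT libraries chose the members in run 2 and nothing is read from their counts. In C1q macrophages and monocytes of PEP-619WW, *Atp6v0d2*, *Fabp4* and *Spp1* reached 50 UMIs only through run 2. In run 1 they held 3, 19 and 45 UMIs in C1q macrophages and 0, 7 and 43 in monocytes. Nothing is read from the PEP-619WW counts either. No source used here says how the runs are related, and mice, sorting and sequencing cannot be told apart between them.

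**Figure D3:**
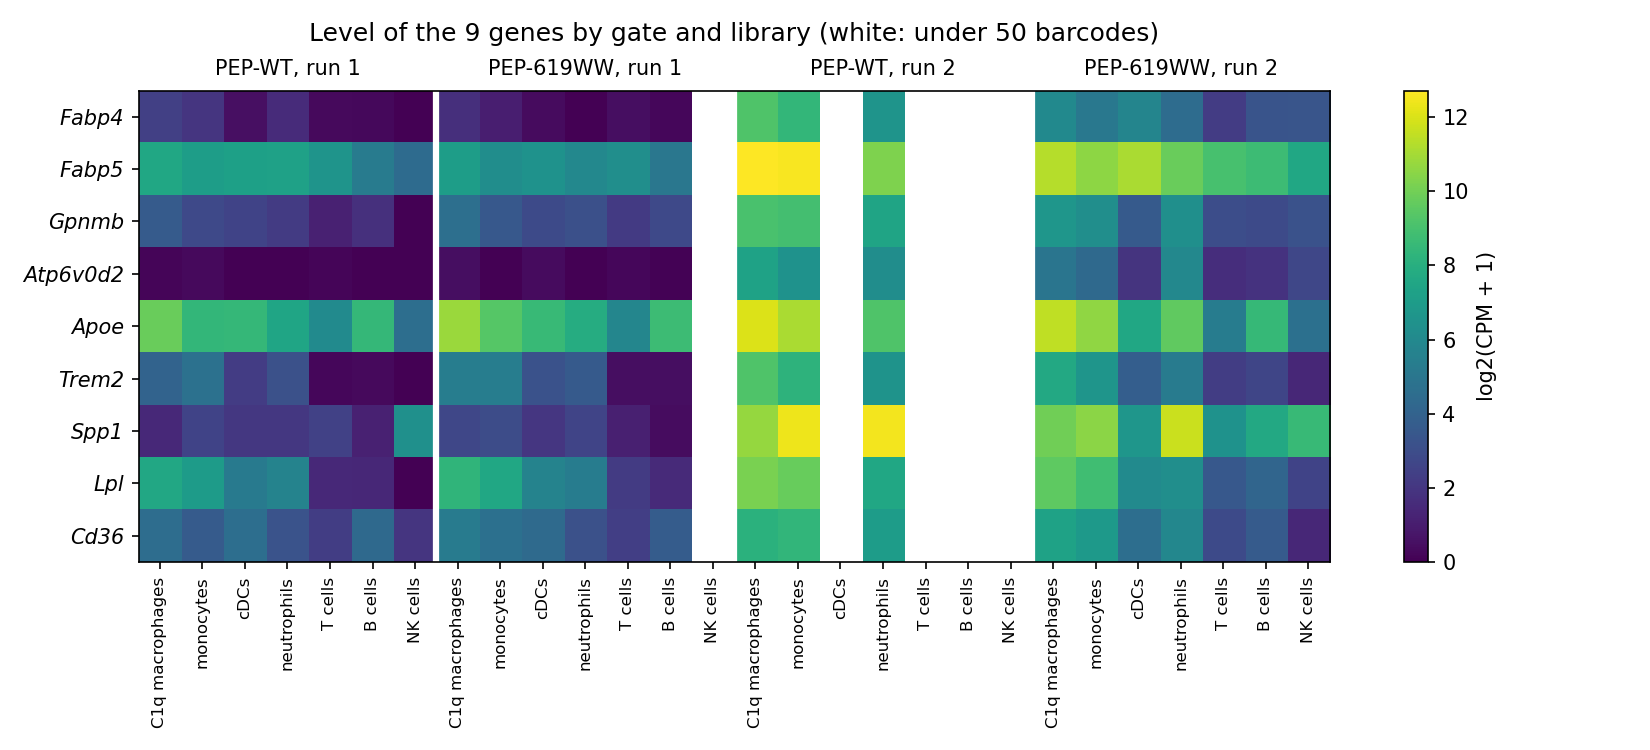
Level of each of the 9 genes, as colour on a log2(CPM + 1) scale, in 7 gates of each library, left white where a gate held fewer than 50 barcodes. In run 2 *Spp1* is highest in neutrophils, at 5729 in PEP-WT and 3327 in PEP-619WW, while *Trem2* is highest in C1q macrophages, at 590.3 and 206.

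The members were also counted within single macrophages. In run 1 the median C1q macrophage held UMIs of 2 of the 9 genes in both genotypes, and in run 2 of 6 in PEP-WT and of 4 in PEP-619WW. With each barcode reduced to 1000 UMIs the medians were 1 and 1 in run 1 and 4 and 2 in run 2. *Fabp4*, *Gpnmb* and *Atp6v0d2* were found together in 22.9% of PEP-WT and 1.73% of PEP-619WW C1q macrophages of run 2 and in 0 barcodes of run 1. At 1000 UMIs per barcode these shares of run 2 were 3.49% and 0.258%. All 9 genes were found in 16.2% and 0.965% of the C1q macrophages of run 2. In T cells of PEP-619WW of run 2, with a median depth of 3035 UMIs, *Gpnmb* was found in 2.01% of barcodes and *Atp6v0d2* in 0.838%.

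In PEP-WT of run 2, barcodes with one gene of this trio also held another more often than the gate as a whole did. At 1000 UMIs, 27.8% of all C1q macrophages held *Gpnmb*, against 48.0% of those with *Fabp4* and 53.9% of those with *Atp6v0d2*. These barcodes come from 1 library, so that the shares describe that pool.

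**Figure D4:**
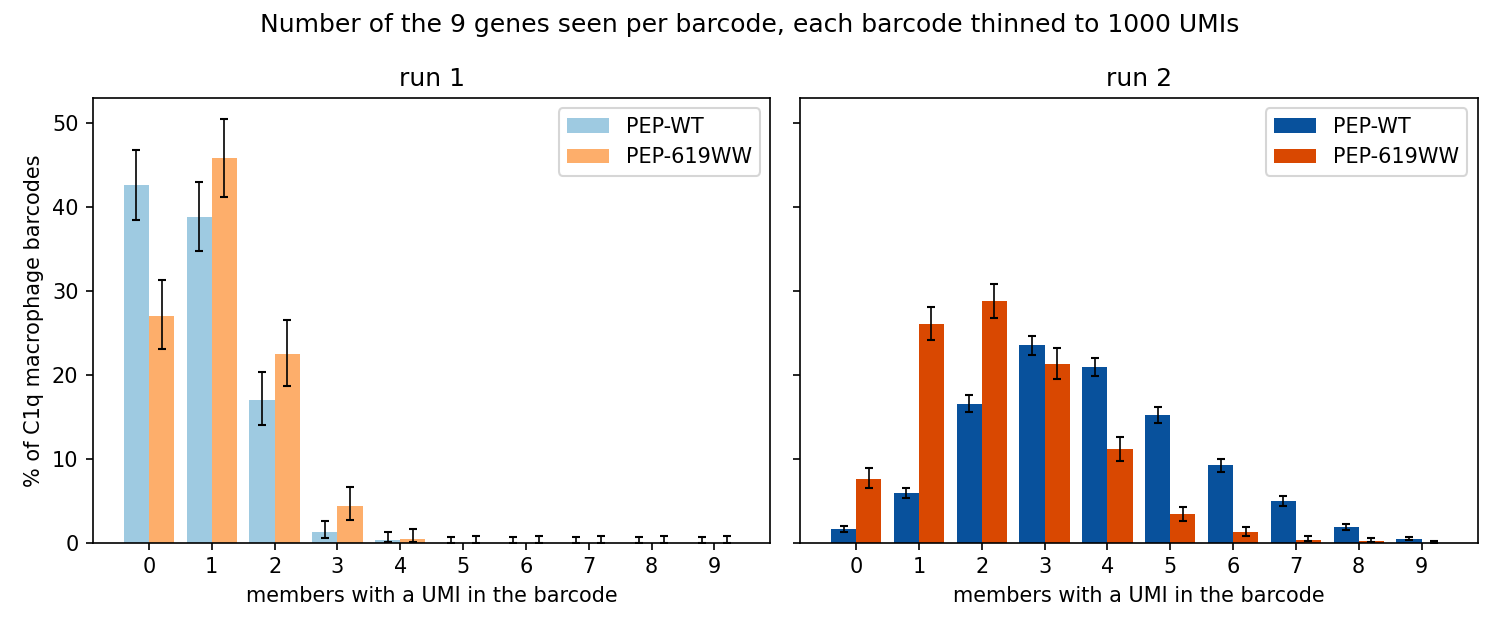
Share of C1q macrophage barcodes, in percent, by the number of the 9 genes with at least 1 UMI once each barcode was thinned to 1000 UMIs, for PEP-WT and PEP-619WW of run 1 (left) and run 2 (right), with bars for exact 95% binomial intervals. Both libraries of run 1 have a median of 1 gene, and in run 2 the PEP-WT library has a median of 4 and the PEP-619WW library of 2.

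The C1q macrophages of run 2 did not hold the same kinds of cell in both genotypes. *Ccr2*, the receptor by which monocytes leave the marrow, was found in 25.8% of them in PEP-WT and 82.3% in PEP-619WW, and *Vcam1*, an adhesion molecule of resident splenic macrophages, in 40.4% and 5.79%. In barcodes without *Ccr2*, *Fabp4* stood at 694 CPM in PEP-WT and 184 in PEP-619WW, and in barcodes with it at 321 and 48.3. *Gpnmb* stood at 618 and 197 without *Ccr2* and at 305 and 87.7 with it. Both genes were thus lower in *Ccr2* barcodes within each genotype, and *Atp6v0d2* followed, with log2 ratios of *Ccr2* barcodes over the rest of -1.36 in PEP-WT and -1.39 in PEP-619WW.

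Among barcodes without *Ccr2*, the ratios of run 2 were lower for all members but *Lpl*, which stood at 0.74. Of the 9 members, 3 were at least 2-fold higher in PEP-WT and 0 lower over these 4335 and 349 barcodes, where 6.24% and 4.97% of all genes were, with log2 ratios of 1.92 for *Fabp4*, 1.65 for *Gpnmb* and 1.60 for *Atp6v0d2*. *Trem2* fell short at 0.92 and *Fabp5* at 0.82. A barcode with 0 UMIs of *Ccr2* may still come from a cell that expresses it, so the split is a partial one.

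Split by *Ccr2*, *Spp1* went the other way from the trio in PEP-WT. In that library of run 2 it stood at 2398 CPM in macrophages with *Ccr2* and 1431 in those without, while in PEP-619WW the levels were 999 and 1001. It was lower in barcodes with *Vcam1*, with log2 ratios of -1.32 and -0.98, and lower in barcodes with the cell cycle gene *Mki67*, with -1.28 and -1.90. The trio was lower in the *Mki67* barcodes as well, with -0.53 and -0.73 for *Fabp4*, -0.69 and -1.24 for *Gpnmb* and -0.59 and -1.16 for *Atp6v0d2*. With *Vcam1*, *Gpnmb* was also lower, at -0.18 and -0.49, while *Fabp4*, at 0.15 and 1.27, was higher. In run 1, *Trem2* was lower in the *Vcam1* barcodes of both genotypes, with log2 ratios of -1.32 and -1.33, whereas in run 2 it was higher in them, with 0.24 and 0.91. Of the 45 *Spp1* UMIs in PEP-619WW of run 1, 44 lay in barcodes with *Ccr2*.

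**Figure D5:**
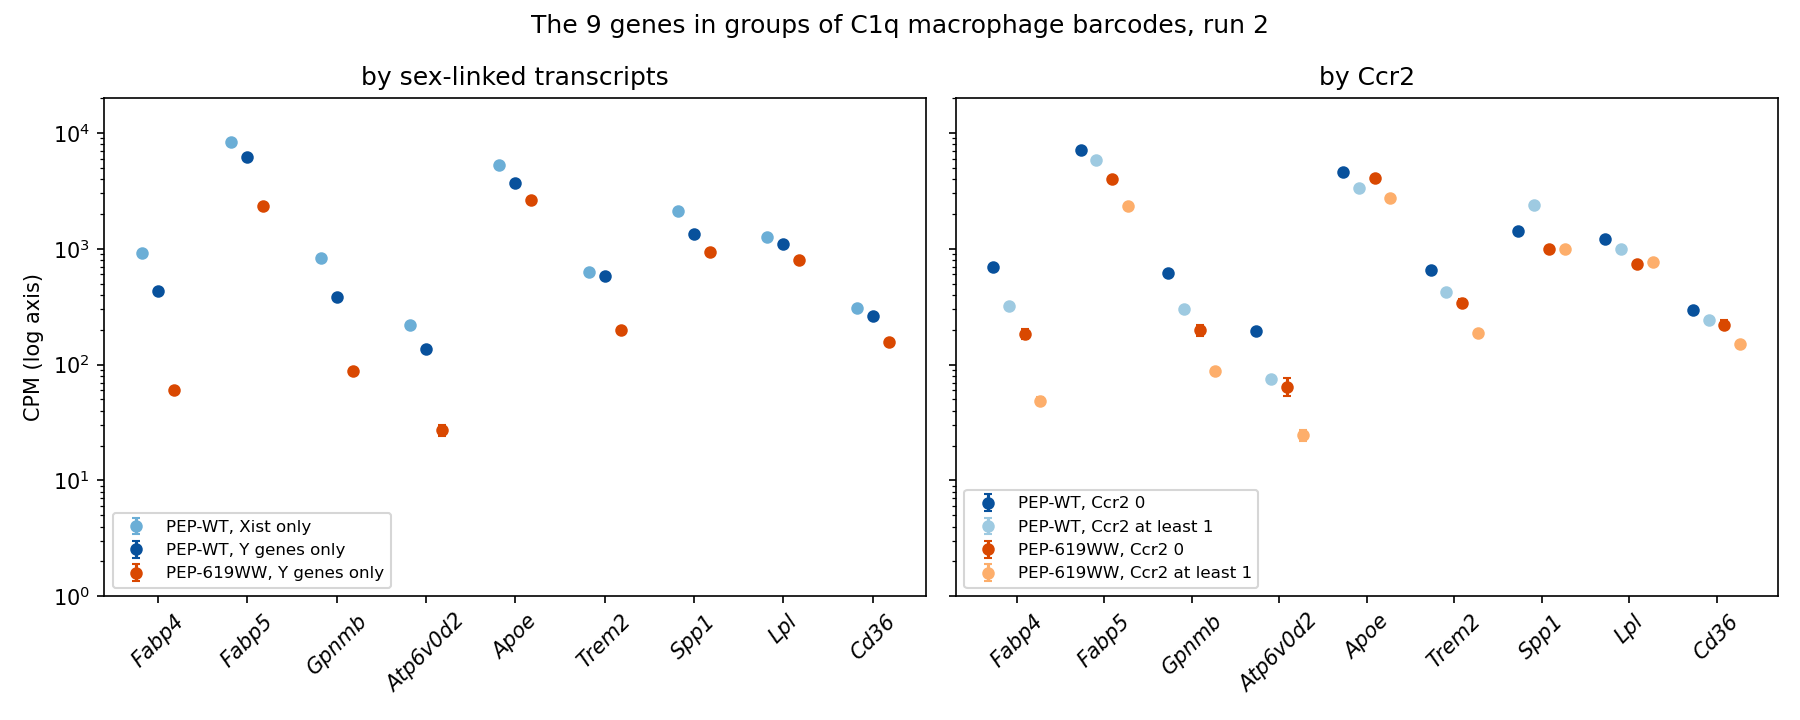
Level of each of the 9 genes, in CPM on a log axis, in C1q macrophages of run 2, split by sex-linked RNA (left, PEP-WT barcodes with *Xist* alone and barcodes of both genotypes with Y-linked RNA alone) and by *Ccr2* (right, with 0 or at least 1 UMI), with bars for exact 95% Poisson intervals. All 9 genes are higher in PEP-WT than in PEP-619WW among the Y barcodes, *Fabp4*, *Gpnmb* and *Atp6v0d2* are higher without *Ccr2* in both genotypes, and *Spp1* is higher with *Ccr2* in PEP-WT, at 2398 against 1431.

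The lists of related genes were counted in C1q macrophages against the background given above, 1.24% higher and 0.98% lower in run 1 and 7.17% and 8.82% in run 2. Of the 4 genes of *Trem2* signalling, among them its adaptor *Tyrobp* and the kinase *Syk*, 0 were at least 2-fold apart in C1q macrophages of either run, with a median log2 ratio of -0.044 in run 1 and -0.52 in run 2. *Tyrobp* stood at -0.037 in run 1 and -0.27 in run 2. Of the 5 receptors of osteopontin, 1 was at least 2-fold higher in PEP-WT in run 1, the integrin chain *Itgb3* at 1.08, and 1 at least 2-fold lower in run 2, the chain *Itga4* at -1.07, with *Cd44* at -0.99.

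Of the other fatty acid-binding proteins, *Fabp7* alone had enough UMIs in run 1, where its log2 ratio was -1.38, and 1 of 2 tested was at least 2-fold higher in run 2, again *Fabp7* at 1.96. It thus lay on the side of PEP-619WW in run 1 and of PEP-WT in run 2, as *Gpnmb* and *Trem2* did. Among the lipoprotein and scavenger receptors, 1 of 6 was higher and 1 lower in run 1, *Marco* at 3.09 and *Stab1* at -1.29. In run 2, *Stab1* stood at 1.51 and *Olr1* at -1.37, while *Marco* had 0 UMIs in PEP-619WW and was at least 27.4-fold higher in PEP-WT against the 3 counts that a count of 0 allows.

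Of 10 genes of cholesterol handling tested in run 1, 0 were at least 2-fold higher and 1 lower, the apolipoprotein gene *Apoc2* at -1.35, which lies near *Apoe*. In run 2, 1 of 11 was higher, the cholesterol 25-hydroxylase gene *Ch25h* at 1.89, and 2 lower, *Apoc1* at -2.76 and *Apoc2* at -1.39, while the cholesterol exporter gene *Abca1* stood at 0.98. *Apoc1* and *Apoc2* were thus on the opposite side from *Apoe* in run 2. Of the genes of lipid droplets and lipolysis, 0 of 8 passed in run 1, and in run 2 1 of 9 was higher, the monoglyceride lipase gene *Mgll* at 3.78, and 2 were lower, the lipase gene *Lipe* at -1.27 and *Dgat2*, which makes triglycerides, at -2.18. Of 8 genes of PPAR signalling and fatty acid oxidation, 0 passed in either run, with medians of 0.047 and 0.20.

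Of 12 lysosomal hydrolases and membrane proteins tested in run 2, 3 were at least 2-fold higher in PEP-WT and 0 lower, where 7.17% and 8.82% of all genes were, the protease genes *Ctsk* at 2.43 and *Ctsl* at 1.35 and the membrane protein gene *Cd63* at 1.33, with a median of 0.66. In run 1, 0 of 11 passed in either direction, with a median of -0.18. The 16 other subunits of the proton pump were each under 2-fold in both runs, with medians of -0.022 and 0.26. The 4 MiT/TFE factors, which drive lysosomal genes, had 0 past 2-fold in either run, with medians of -0.24 and -0.24.

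Of the other genes known from lipid-associated macrophages, 0 of 8 passed in run 1, and 3 of 10 were higher and 1 lower in PEP-WT of run 2. The growth factor gene *Igf1* stood at 2.50, *Syngr1* at 2.42, the elastase gene *Mmp12* at 2.09 and *Csf1*, the macrophage growth factor, at -2.37. In monocytes of run 2, 5 of 12 lysosomal genes were at least 2-fold higher and 0 lower, led by *Ctsk* at 2.92 and *Ctsl* at 2.24, and of the other lipid-associated genes 3 of 10 were higher and 2 lower, where 2.46% and 9.83% of all genes were. These lists were assembled with results of these libraries known and give no independent evidence.

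The genes whose levels ran most alike with each member were sought over the 23 combinations of gate and library with at least 50 barcodes, among 12533 genes, from which the 9 members were then left out. The points share libraries and depth, so the Pearson correlations of log2 levels are descriptions. For *Fabp4* the closest was *Mmp12* (r = 0.957), for *Fabp5* *Lima1* (r = 0.958), for *Gpnmb* *Ccl12* (r = 0.946) and for *Atp6v0d2* *Pdpn* (r = 0.971), ahead of another proton pump subunit gene, *Atp6v1c1* (r = 0.961). For *Trem2* the closest were *Lamp1* (r = 0.977), a main protein of the lysosomal membrane, and *Mitf* (r = 0.969), a MiT/TFE factor. For *Lpl* it was *Adgre1* (r = 0.982), which encodes the macrophage antigen F4/80, for *Apoe* *Ctsz* (r = 0.940), for *Cd36* *Ly96* (r = 0.936) and for *Spp1* *Slc2a1* (r = 0.978), a glucose transporter gene. Among the members themselves the correlation ran from 0.325 between *Apoe* and *Spp1* to 0.963 between *Trem2* and *Lpl*.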

How the data were processed

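Cells that the study's methods describe as splenocytes were profiled by droplet sequencing of RNA 3′ ends (10x Genomics), in 4 libraries, 1 for each genotype in each of 2 runs. The authors made the deposited counts with Cell Ranger, version 6.0.0 in the submitters' processing notes, on mm10, and deposited whole-number UMI counts for 32285 genes and each barcode, of which 32158 identifiers were paired with a symbol. The count files hold no other values, and 0 columns of per-sample values were left unused. The members and gene lists were chosen with earlier results of these data known.

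From these counts, UMIs were summed over the barcodes of a gate in each library and divided by the gate's total, in Python 3.11.15 with NumPy 2.4.6 and SciPy 1.17.1 (figures with matplotlib 3.10.9). Gates were the 3 given in the report and, for reference, T cells (at least 2 UMIs of *Cd3e* and *Cd3d*), B cells (at least 5 of *Cd79a* and *Cd79b*), NK cells (at least 2 of *Ncr1* and *Klrb1c*, none of *Cd3e*) and neutrophils (at least 50 of *S100a8* and *S100a9*), all with fewer than 5 UMIs of *C1qa* and *C1qb*, the lymphoid ones also with fewer than 5 of *Lyz2*. A gene was compared where both libraries together held at least 50 UMIs, and 2-fold was the mark for a count. For a library at 0, the bound used 3 counts. Barcodes were otherwise kept as deposited. No doublet caller was run, and an alternative left out barcodes that also met a T, B or NK cell minimum or were in the top 5% of their library by UMIs.

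For equal depth, each barcode was thinned to 1000 UMIs and shallower ones were left out, among C1q macrophages 39 and 35 in run 1 and 136 and 31 in run 2. The text names all 9 members, of each list up to 3 genes with the largest ratio in each direction, with some others for their role, and for each member the genes among the 3 most alike by Pearson correlation of log2(CPM + 1), among genes with at least 200 UMIs. The ratio step was tested on simulated counts for 11847 genes of the C1q comparison in run 2, of which 200 were changed. It recovered the direction of 100% of these, and 95.5% of the intervals held the true ratio. The counts were drawn as the intervals assume, with no clustering of UMIs by barcode, and the changes were at least 2-fold. The test thus checks the computation and does not measure error from such clustering. Of the listed genes, 1, *Clec7a*, was not analysed here, and not all results of the receptor list are reported here. Promoter windows came from RefSeq on GRCm38.p6 and gene positions from the GENCODE annotation of GRCm38. There were 13 alternatives planned and 3 added after seeing the data: barcodes with Y-linked RNA alone in run 2, no shared barcodes, and C1q macrophages without *Ccr2*.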

Additional observations from a re-analysis of the deposited data

Results flagged for a closer look

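For 12 pairs of gene and gate the PEP-WT library was the lower one in run 1 and the higher one in run 2, so that the log2 ratio of PEP-WT over PEP-619WW changed sign between the runs with each interval of counting error on 1 side of 0. The difference between the runs was not tested, since each rests on 1 library per genotype. In C1q macrophages the ratio was higher in run 2 than in run 1 by 3.44 for *Gpnmb*, 2.94 for *Trem2*, 2.41 for *Spp1*, 1.62 for *Cd36*, 1.52 for *Apoe* and 1.32 for *Lpl*, on the log2 scale. In monocytes the gap was 3.45 for *Gpnmb*, 2.62 for *Cd36*, 2.24 for *Trem2*, 1.59 for *Lpl* and 1.42 for *Apoe*, but for *Apoe* the run 2 value was -0.041 among barcodes with Y-linked RNA alone, so that the change of sign was lost. In cDCs it was 2.11 for *Lpl*, from -0.52 to 1.59, and rests on the 48 PEP-WT barcodes of run 2. The value of run 2 was -0.68 without the C1q barcodes and -0.049 when thinned to 1000 UMIs, so that the change of sign was lost. The value of *Spp1* in C1q macrophages rests on 16 and 45 UMIs in run 1, where its ratio lay above 0, and the change of sign was lost, without likely doublets (0.84), with at least 20 UMIs of *C1qa* and *C1qb* (0.10) and without *Ccr2* (2.04).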

How the results depend on the processing

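Under 13 other settings and 3 more chosen after seeing the data, 473 of 492 log2 ratios of a member kept their sign. In C1q macrophages of run 2 this held for 108 of 108, in monocytes of run 2 for 98 of 99, in cDCs of run 2 for 82 of 88, and in run 1 for 82 of 87 in C1q macrophages, 68 of 70 in monocytes and 35 of 40 in cDCs. Some of these values could not change sign. A minimum of 10 UMIs leaves each ratio as it was, and run 1 held no pigment cell barcodes to take out. The contrast of run 2 chose the members, so that nothing is read from its tally. In run 1, of the C1q macrophages thinned to 1000 UMIs 0 members were at least 2-fold lower in PEP-WT (3 tested), and with at least 2 UMIs of *C1qa* and *C1qb* 1 was lower and 1 higher. In monocytes of run 1, 2 were lower with the median ratio of all genes set to 1, 0 when thinned and 2 without neutrophil barcodes, and 1 was higher with a minimum of 10 UMIs, without likely doublets or with at least 20 UMIs of *Lyz2*. In cDCs of run 1, 1 was lower with a minimum of 10 UMIs and 1 higher without likely doublets. In run 2, 3 were higher in C1q macrophages without *Ccr2*, and in cDCs 2 were higher when thinned, 2 with at least 2 UMIs of *Flt3*, and 1 higher and 1 lower without the C1q barcodes. Beyond the shares of all genes given above, none was computed for these settings, and nothing is read from these counts.

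*Spp1* in C1q macrophages of run 1 reversed to 0.84 without likely doublets, 0.10 with at least 20 UMIs of *C1qa* and *C1qb* and 2.04 without *Ccr2*. In cDCs of run 2, *Lpl* reversed to -0.049 when thinned, *Fabp4* to -0.18 with at least 2 UMIs of *Flt3*, and, without C1q barcodes, *Fabp4* to -1.17, *Apoe* to -0.88, *Lpl* to -0.68 and *Spp1* to -0.33. Fewer UMIs or barcodes stand behind each of these values, and the cause was not tested. The labels give no replicate numbers, and no fit paired by run was made: the runs were kept apart, since no source used here says how they are related and run 2 chose the members. With 1 pool per genotype, the spread between animals is unknown.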

Other observations

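UMIs of *Apoe* and, at a lower level, of *Cd36* were found in B cells of run 1, and both were also split by B cell markers. *Cd36* was found in 6.76% of B cells in PEP-WT and 5.12% in PEP-619WW, against 1.63% and 1.52% of T cells, with a median of 2794 and 3573 UMIs per B cell and 3950.5 and 6270 per T cell. The part of free RNA in these values was not tested. Marginal zone B cells are known to hold much *Cr2* and little *Fcer2a*, and follicular B cells hold *Fcer2a*. In PEP-WT, *Cd36* stood at 31.9 CPM (28.2 to 35.8) in 1825 B cells with *Cr2* and without *Fcer2a* and at 21.2 (17.7 to 25.2) in 1266 with *Fcer2a*. In PEP-619WW the levels were 20.3 (15.0 to 26.9) in 422 and 21.7 (15.4 to 29.8) in 351 barcodes. *Apoe* stood at 270.2 and 324 in the same subsets of PEP-WT and at 455 and 549 in PEP-619WW. The PEP-WT library was thus the lower one for *Apoe* in both B cell subsets of run 1, as it was in the macrophage and monocyte gates, while the T cells of run 1 went the other way. The split was chosen after the B cell values were seen. Of 7489 and 3610 B cells in all, those with neither marker were not measured apart.

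In monocytes of run 2, *Fabp7* stood at a log2 ratio of 4.24 and *Syngr1* at 3.26, while *Apoc1* stood at -2.03. Of the genes of *Trem2* signalling and the proton pump subunits, 0 of 4 and 0 of 16 were at least 2-fold apart in monocytes or in cDCs of either run. Of all genes, 1.39% were higher and 1.08% lower in monocytes of run 1, and 1.42% and 1.14% in cDCs. In run 2 these shares were 2.46% and 9.83% in monocytes and 1.48% and 16.5% in cDCs.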
